A study of Mus musculus with 2 samples.

Results

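The mouse mitochondrial genome, chromosome M, encodes 13 proteins, and 10 of their transcripts were followed here. They are mt-Nd1, mt-Nd2, mt-Nd3, mt-Nd4 and mt-Nd5, mt-Cytb, mt-Co1, mt-Co2 and mt-Co3, and mt-Atp6. They were taken by symbol from the 31053 genes of the files. All 10 were present, and together they gave 99.5% of the UMIs of the 13 chromosome M genes in each library. A UMI, or unique molecular identifier, is a random tag put on each RNA molecule before amplification, and counting tags counts molecules.

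The 10 proteins are membrane subunits of the machinery of oxidative phosphorylation. mt-Nd1 to mt-Nd5 belong to complex I, which takes electrons from NADH. mt-Cytb is the cytochrome b of complex III, mt-Co1 to mt-Co3 are the core of complex IV, which passes electrons to oxygen, and mt-Atp6 forms part of the proton channel of ATP synthase. The other subunits of these complexes are encoded in the nucleus and imported, and all of complex II is nuclear-encoded. Mitochondrial transcripts are made inside the organelle as long precursors that are cut apart and mostly given a poly(A) tail. Mitochondria lie outside the nucleus, so a preparation of nuclei holds such RNA only as far as cytoplasm or free RNA is carried along, and the share of mitochondrial UMIs is commonly used as a mark of such carry-over or of damaged barcodes.

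Sequencing of this kind reads RNA from its poly(A) end, so the annotated last bases of the genes are shown for the members on which the results turn. Whether the poly(A) tails of these RNAs begin at the annotated ends was not tested. They come from the GENCODE vM21 transcripts on GRCm38, run 5′ to 3′ on the plus strand, and the capitals mark the annotated letters of the stop codon. The ends of mt-Nd4 (chrM:11515-11544), mt-Co3 (chrM:9361-9390) and mt-Cytb (chrM:15259-15288) are printed because these genes stop at a single T, which the poly(A) tail is known to complete to a stop codon. The end of mt-Atp6 (chrM:8578-8607) is that of the member with the most UMIs, and that of mt-Nd5 (chrM:13536-13565) is that of the member with the fewest. The end of mt-Nd3 (chrM:9777-9806) is that of the member whose share of the sum differed most between the libraries over all nuclei as a log2 ratio.
mt-Nd4: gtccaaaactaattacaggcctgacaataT
mt-Co3: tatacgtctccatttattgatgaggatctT
mt-Cytb: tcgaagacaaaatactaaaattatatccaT
mt-Atp6: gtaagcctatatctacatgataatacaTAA
mt-Nd5: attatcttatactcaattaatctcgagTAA
mt-Nd3: acacaaaaaggattagaatgaacagagTAA

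All 10 genes lie on the plus strand without introns. mt-Atp6 overlaps mt-Atp8 by 43 bases and mt-Co3 by 1 base, and mt-Nd4 overlaps mt-Nd4l by 7 bases. The end of mt-Nd5 overlaps mt-Nd6 by 14 bases on the opposite strand. How reads from these stretches were counted was not tested. In the annotation 9 of the members, all but mt-Nd1, have a nuclear pseudogene copy. These copies are 100% identical over the aligned bases for mt-Nd4, mt-Co2, mt-Co3 and mt-Atp6, 99.7% for mt-Nd3, 97.6% for mt-Co1, 96.7% for mt-Nd2, 95.2% for mt-Nd5 and 92.9% for mt-Cytb. The aligned bases cover only 49.1% of mt-Nd2, 52.3% of mt-Nd5 and 63.6% of mt-Nd4, and 99.1% to 100% of each of the others. None of these copies is among the genes of the files, and how reads shared with them were counted was not tested.

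Nuclei had been isolated from frozen entorhinal cortex of male APP/PS1 mice at the age of 18 months and sequenced as 2 libraries, each of them pooled from 5 mice. APP/PS1 is a transgenic line that deposits amyloid in the brain, and the mice of both groups carried its transgenes. In the OLE group the mice had received N-oleoyl-leucine (OLE, labelled C18:1-Leu), an N-acyl amino acid, at 25 mg/kg/day, dissolved in alkaline drinking water, beginning at 15 months. The vehicle group had received DMSO in the same way. No library of untreated or wild-type mice enters this comparison. Each group is 1 library, which leaves no replicates and allows no test. The 95% intervals given with the values describe counting error alone and say nothing of the spread between mice or preparations.

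The deposited libraries held 6745 vehicle nuclei with 70845739 UMIs and 6173 OLE nuclei with 69485537 UMIs, and 14 barcodes occurred in both. Removal of likely doublets left 6414 nuclei in vehicle and 5884 in OLE, with a median of 3868 and 6142 UMIs. They were clustered without the chromosome M genes, so the members took no part in defining the cell types, and clusters were named from marker genes. The 7 named types with at least 50 nuclei in each library were 6 neuronal and glial ones and leptomeningeal-like nuclei. Every marker listed for the type that is in the files was detected in each library, except 1 leptomeningeal marker in OLE. Detection over pooled nuclei cannot show that a name is right. In the 6 neuronal and glial types, the type's own markers had the highest summed level of all marker lists in both libraries. In leptomeningeal-like nuclei astrocyte markers were higher, at 4648 against 3672 UMIs per 1000000 in vehicle and 4894 against 3833 in OLE. Oligodendrocyte precursor-like nuclei held 8826 and 8088 from GABAergic markers, beside 18417 and 18826 from their own. Cluster 0, the largest, stayed unnamed since it had raised markers of several types. It held 2549 vehicle nuclei with a median of 2343 UMIs and 2072 OLE nuclei with a median of 4706 UMIs. Cluster 4 also stayed unnamed and was led by Ttr, haemoglobin, ferritin and ribosomal genes, with medians of 1290 and 1157 UMIs in 202 and 285 nuclei.

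The 10 transcripts made up a similar, small share of all UMIs in both libraries. In the vehicle library they gave 433843 UMIs, or 0.653% of the total (0.652 to 0.655), and in the OLE library 429917 UMIs, or 0.667% (0.665 to 0.669). The median nucleus held 28 of these UMIs in vehicle and 42 in OLE, and 5 vehicle and 11 OLE nuclei held none. The UMIs were unevenly spread. In vehicle 522 nuclei held 50% of the members' UMIs, and in OLE 650 nuclei did. The 279 vehicle and 291 OLE nuclei with at least 5% of their UMIs from chromosome M made up 4.35% and 4.95% of the nuclei, and both sets held 27.6% of the members' UMIs of their library. Without them the members' share was 0.479% in vehicle and 0.491% in OLE.

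Levels of the members were compared per kilobase of gene length, in UMIs per 1000000 UMIs of the library and kilobase. On this scale the order was led by ATP synthase and complex IV. mt-Atp6 stood at 1963 in vehicle and 2063 in OLE, mt-Co3 at 1631 and 1674, and mt-Co2 at 1316 and 1329. These 3 genes lie in a row on the chromosome, with mt-Atp8 between mt-Co2 and mt-Atp6. mt-Cytb of complex III followed at 565 and 573, and mt-Co1, the catalytic subunit of complex IV, at 530 and 528.

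The complex I members were lower per kilobase. mt-Nd3 stood at 527 in vehicle and 482 in OLE, mt-Nd2 at 426 and 448, mt-Nd1 at 421 and 418, and mt-Nd4 at 344 and 355. mt-Nd5 was far below the others at 28.5 and 27.5. Reads that fall past an annotated end are not counted for that gene, so a low count need not mean a rare molecule. The order of the 10 was the same in both libraries. The counting intervals of mt-Co1 and mt-Nd3 overlapped in vehicle, as did those of mt-Nd2 and mt-Nd1, and neither pair overlapped in OLE. Reads of this kind start near the end of a molecule, so division by length may favour short genes such as mt-Nd3. Before it, the order in both libraries was mt-Atp6, mt-Co3, mt-Co2, mt-Co1, mt-Cytb, mt-Nd4, mt-Nd2, mt-Nd1, mt-Nd3 and mt-Nd5.

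In UMIs, mt-Atp6 had 88760 in vehicle and 90544 in OLE, and mt-Co3 had 84872 and 84616. mt-Co2 had 59745 and 58608, mt-Co1 54316 and 52606, and mt-Cytb 42905 and 42246. mt-Nd4 had 31475 and 31525, mt-Nd2 29380 and 29950, mt-Nd1 26757 and 25783, mt-Nd3 12187 and 10808, and mt-Nd5 3446 and 3231. mt-Atp6 and mt-Co3 thus led in both libraries, and mt-Nd5 was last. The other 3 protein genes of the chromosome had fewer UMIs. mt-Nd4l, which is known to share an mRNA with mt-Nd4, had 1254 and 1200 UMIs. mt-Atp8, known to share one with mt-Atp6, had 550 and 560, and mt-Nd6, the only protein gene on the minus strand, had 283 and 290. mt-Nd4l and mt-Atp8 lie upstream of their partners, and reads of this kind start near the end of a molecule. Their counts therefore do not show that their mRNAs were rarer.

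Cell types differed far more than the libraries did. Neuron-like nuclei had the lowest shares of UMIs from the members. In glutamatergic-like nuclei the share was 0.346% in vehicle (0.345 to 0.348) and 0.324% in OLE (0.322 to 0.325). In GABAergic-like nuclei it was 0.477% (0.472 to 0.482) and 0.457% (0.451 to 0.462). Astrocyte-like nuclei lay next, at 0.835% (0.815 to 0.855) and 0.846% (0.827 to 0.865), and oligodendrocyte precursor-like (OPC-like) nuclei at 1.00% (0.982 to 1.03) and 0.873% (0.851 to 0.896). Oligodendrocyte-like nuclei had 1.24% (1.225 to 1.254) and 1.20% (1.18 to 1.22). Microglia-like nuclei had 1.26% (1.23 to 1.28) and 1.48% (1.45 to 1.50). The order of these 6 types was the same in both libraries, and the intervals of oligodendrocyte-like and microglia-like nuclei overlapped in vehicle, as did those of astrocyte-like and OPC-like nuclei in OLE.

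Depth moved in part with this order. The median nucleus held 20814 UMIs in vehicle and 19297 in OLE among glutamatergic-like nuclei, against 3474 and 3085 among oligodendrocyte-like and 2435 and 2329 among microglia-like nuclei. OPC-like nuclei, however, had a higher share than astrocyte-like ones at a greater depth, with medians of 7046 and 7313 against 5866 and 5740 UMIs. In numbers of molecules the order was different. The median glutamatergic-like nucleus held 40 member UMIs in vehicle and 36 in OLE, the median GABAergic-like nucleus 46 and 44, the median oligodendrocyte-like nucleus 22 and 16, and the median microglia-like nucleus 20 and 18. The median OPC-like nucleus held 53 and 52. Neuron-like nuclei, with the lowest shares, thus held more molecules of the members than oligodendrocyte-like and microglia-like nuclei did.

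**Figure D1:**
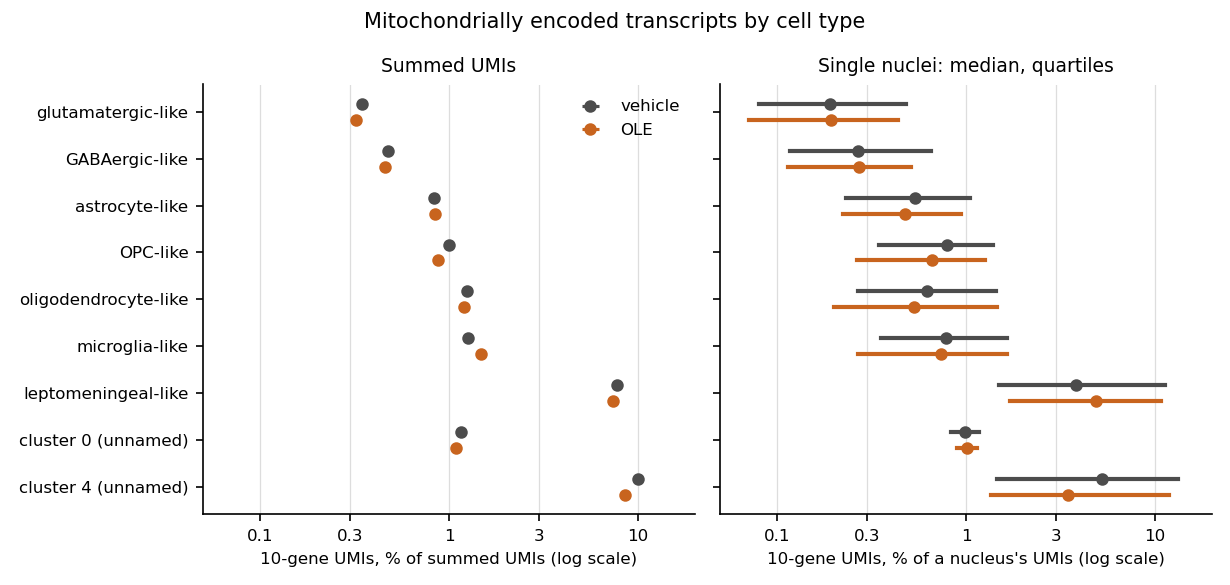
Left, UMIs of the 10 members as a percentage of all UMIs summed over the nuclei of a type (log axis), with 95% counting intervals that are mostly smaller than the points. Right, the same percentage in single nuclei, as median (point) and quartiles (line), for vehicle (grey) and OLE (orange). Glutamatergic-like nuclei are lowest in both libraries, leptomeningeal-like nuclei and cluster 4 are highest, and the quartiles of cluster 0 are the closest together.

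Single nuclei of a type varied widely. Among glutamatergic-like nuclei the members' share had quartiles of 0.0807% and 0.483% in vehicle and 0.0709% and 0.439% in OLE around medians of 0.191% and 0.194%. Oligodendrocyte-like nuclei had medians of 0.621% and 0.528%, with quartiles of 0.267% and 1.44%, and 0.201% and 1.45%. Microglia-like nuclei had medians of 0.781% and 0.733%, with quartiles of 0.357% and 1.64%, and 0.268% and 1.65%. The nuclei of cluster 0 were alike by contrast. Their median share was 0.985% in vehicle and 1.02% in OLE, with quartiles of 0.829% and 1.17%, and 0.890% and 1.14%. After each nucleus had been thinned to 1000 UMIs, at least 1 member was found in 75.3% of vehicle and 75.4% of OLE glutamatergic-like nuclei, in 82.2% of GABAergic-like nuclei in both libraries, and in 99.9% and 100% of the nuclei of cluster 0. Before thinning, the shares were 99.9% and 99.8%, 100% in both, and 99.96% and 100%. Thinning left out no neuron-like nucleus, but 129 vehicle and 151 OLE nuclei of cluster 0. No cell type serves as one that lacks these transcripts, so no background share can be set beside these.

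The highest shares were found in leptomeningeal-like nuclei and in cluster 4. Leptomeningeal cells are fibroblast-like cells of the brain's coverings. Their nuclei had 7.75% of UMIs from the members in vehicle (7.69 to 7.80, 145 nuclei) and 7.39% in OLE (7.34 to 7.45, 151 nuclei), and 42.8% and 49.7% of them were at or above the 5% mark for chromosome M. They came from 2 clusters. Cluster 20, with Slc6a20a and Slc6a13 among its leading genes, had 2.46% and 2.31%, and cluster 16, with Bnc2 and Slc47a1 among them, had 10.0% and 9.42%.

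Cluster 16 was split by its leptomeningeal marker UMIs after its values had been seen. In its 52 vehicle and 56 OLE nuclei with at least 5 UMIs from the leptomeningeal markers, the members gave 9.35% and 8.79% of UMIs at median depths of 6735 and 6561 UMIs. In its other 49 and 55 nuclei they gave 15.1% and 14.4% at median depths of 1165 and 1016 UMIs. With the chromosome M genes kept in the clustering, 44 and 45 of the former were named leptomeningeal-like and 0 of the latter in either library. A fixed cut of 5 UMIs is harder to reach at low depth, and that clustering used the members themselves. Neither can therefore show what the latter nuclei are. Without these 49 and 55 nuclei, leptomeningeal-like nuclei had 7.10% and 6.78% of UMIs from the members, and 30.2% and 36.5% of them were at or above the 5% mark. A single vehicle nucleus held 10838 member UMIs, 16.3% of all those in leptomeningeal-like nuclei of its library, and a single OLE nucleus 8076, or 13.7%. Cluster 4 had 10.0% (9.91 to 10.1) in vehicle and 8.54% (8.46 to 8.62) in OLE. Endothelial-like nuclei, 16 in vehicle and 36 in OLE, had 3.89% and 4.56%, and mural-like nuclei, 11 and 16, had 0.987% and 1.59%, too few nuclei to compare.

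Of the 279 vehicle nuclei at or above the 5% mark, 103 were in cluster 4, 62 were leptomeningeal-like, 56 were in cluster 0 and 34 were oligodendrocyte-like. Of the 291 OLE nuclei, 120, 75, 37 and 29 were in these groups. Only 6 vehicle and 2 OLE glutamatergic-like nuclei reached the mark. The highest share in a single nucleus was 45.9% in vehicle and 54.9% in OLE. The median depth of nuclei past the mark was 1509 UMIs in vehicle and 1372 in OLE, under the medians of the libraries.

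The share of the members was highest in barcodes of low depth. Nuclei of both libraries were placed in deciles of their UMIs from genes outside chromosome M. In the lowest decile, of at most 1528 such UMIs, the members gave 4.58% of UMIs in vehicle (4.53 to 4.62, 682 nuclei) and 6.53% in OLE (6.47 to 6.60, 547 nuclei). In the highest, of at least 27021, they gave 0.326% (0.324 to 0.328, 689 nuclei) and 0.345% (0.342 to 0.348, 541 nuclei). The lowest decile thus stood 14.0 times above the highest in vehicle and 18.9 times in OLE, and without nuclei past the 5% mark 4.25 and 4.95 times.

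A minority of barcodes set the sum in the lowest decile. Its median nucleus had 1.17% in vehicle and 1.79% in OLE, while 23.9% and 33.1% of its nuclei were past the 5% mark. From the second to the sixth decile the median lay between 0.904% and 0.999% in vehicle and between 0.914% and 1.04% in OLE, and in the highest decile it was 0.149% and 0.131%. The median nucleus held 14 member UMIs in the lowest and 53 in the highest decile in vehicle, and 18 and 48 in OLE, a smaller difference than that in depth.

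**Figure D2:**
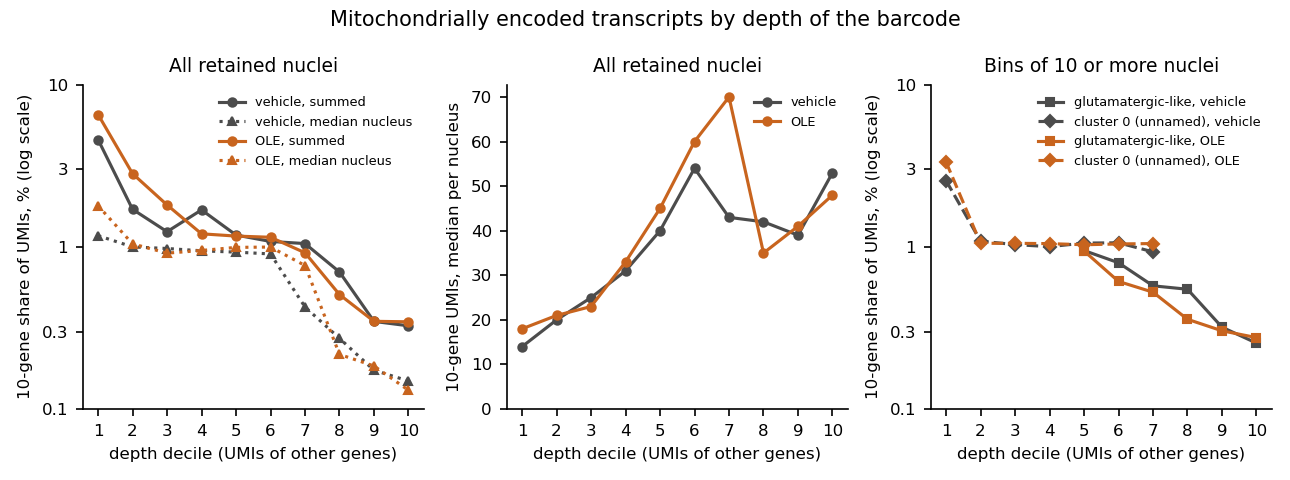
The 3 panels plot the 10 members against deciles of UMIs from genes outside chromosome M, for vehicle (grey) and OLE (orange). Left, their percentage of UMIs, summed (circles) and in the median nucleus (triangles), on a log axis. Middle, their UMIs in the median nucleus. Right, their percentage of summed UMIs in glutamatergic-like nuclei (squares) and cluster 0 (diamonds) on a log axis, which is flat near 1% in cluster 0 from decile 2 to 7 and lower at higher depth in glutamatergic-like nuclei.

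Cell types are not spread evenly over depth, so the trend was also taken within types. In glutamatergic-like nuclei the share was 0.797% in the sixth decile (72 nuclei) and 0.255% in the tenth in vehicle, and 0.612% (54 nuclei) and 0.276% in OLE. In GABAergic-like nuclei it was 0.853% in the seventh and 0.384% in the tenth decile in vehicle, and 0.524% and 0.389% in OLE. Oligodendrocyte-like nuclei went from 2.41% in the second to 0.693% in the sixth decile in vehicle and from 1.59% to 0.761% in OLE. Microglia-like nuclei went from 1.99% in the lowest (25 nuclei) to 0.877% in the fifth decile (19 nuclei) in vehicle. In OLE they went from 3.12% in the lowest (21 nuclei) to 1.11% in the third and 1.37% in the fifth (17 nuclei). Astrocyte-like nuclei had 0.846%, 1.16%, 0.852% and 0.760% in the fourth to seventh deciles of vehicle, and 0.994%, 0.656% and 0.608% in the fifth to seventh of OLE. OPC-like nuclei had 0.638% (8 nuclei), 1.51%, 0.933%, 0.860% and 1.33% (8 nuclei) in the fourth to eighth deciles of vehicle. In OLE they had 0.822% (8 nuclei), 1.06% and 0.788% in the fifth to seventh. Leptomeningeal-like nuclei had no steady trend either. Their share was 12.2% in the lowest decile of vehicle (44 nuclei), 2.96% in the fifth (12 nuclei), 3.03% in the sixth (33 nuclei) and 8.40% in the seventh (18 nuclei). In OLE it was 12.4% (58 nuclei), 2.15% (18 nuclei), 4.02% (34 nuclei) and 9.27% (15 nuclei). Cluster 0 had no such trend above the lowest decile. From the second to the seventh decile its share stayed between 0.931% and 1.08% in vehicle and between 1.03% and 1.05% in OLE, while the median number of member UMIs went from 20 to 75.5 and from 20 to 88. In its lowest decile the sum was 2.56% and 3.33%, but the median nucleus 0.946% and 0.763%.

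The members kept similar proportions to each other in the named types. In the vehicle library mt-Atp6 made up 20.5% of the 10-gene sum, mt-Co3 19.6%, mt-Co2 13.8%, mt-Co1 12.5% and mt-Cytb 9.89%. mt-Nd4 made up 7.25%, mt-Nd2 6.77%, mt-Nd1 6.17%, mt-Nd3 2.81% and mt-Nd5 0.794%. Over the 6 cell types and leptomeningeal-like nuclei of this library, mt-Atp6 ranged from 19.3% to 21.1%, mt-Co3 from 18.9% to 19.8%, and mt-Nd5 from 0.696% to 0.939%. Described over the 14 combinations of these types and libraries, the log2 levels of any pair of members had a Pearson r of at least 0.980 and a median r of 0.994. These points share libraries, and all 10 members share the depth of their nuclei.

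Some proportions differed between types beyond counting error. mt-Nd1 made up 7.14% of the sum in glutamatergic-like (7.01 to 7.27) and 7.07% in GABAergic-like nuclei (6.80 to 7.35) of the vehicle library, but 5.58% in oligodendrocyte-like (5.31 to 5.86) and 4.73% in leptomeningeal-like nuclei (4.57 to 4.89). The OLE values were 7.09%, 7.29%, 5.05% and 4.73%. mt-Co1 went the other way between neuron-like and oligodendrocyte-like nuclei, with 11.6% in glutamatergic-like (11.4 to 11.8) and 13.7% in oligodendrocyte-like nuclei (13.3 to 14.2) in vehicle, and 11.3% and 13.6% in OLE. mt-Cytb made up 12.2% in leptomeningeal-like nuclei (12.0 to 12.5) against 10.1% in glutamatergic-like nuclei (9.94 to 10.2) in vehicle, and 12.5% against 10.2% in OLE.

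Cluster 0 stood apart from these 7 types. mt-Nd3 made up 1.64% of its sum in vehicle (1.55 to 1.73) and 1.36% in OLE (1.29 to 1.43), below the 2.49% to 3.16% and 2.30% to 3.01% of the 7 types. mt-Atp6 made up 23.4% (23.1 to 23.7) and 23.9% (23.7 to 24.2) there, above each of them, and mt-Cytb 8.09% (7.90 to 8.28) and 7.97% (7.81 to 8.14), below each of them. Cluster 0 held 17.9% of all member UMIs in vehicle and 25.3% in OLE. Its proportions were taken from nuclei that were clustered without these genes.

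**Figure D3:**
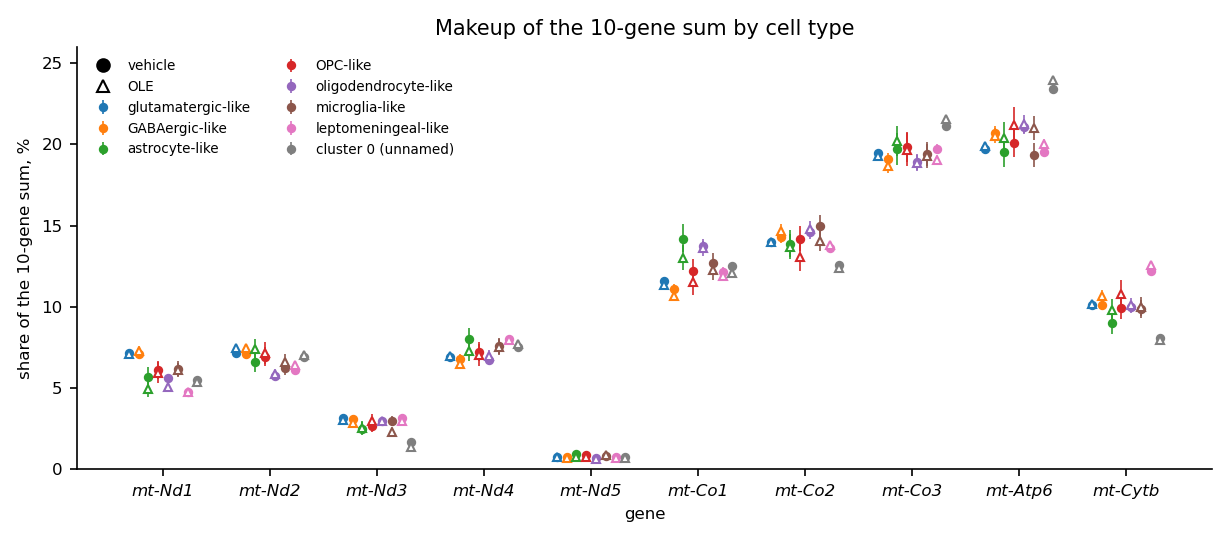
Share of each member in the 10-gene sum (percent) by cell type, for vehicle (filled circles) and OLE (open triangles), with 95% counting intervals. The order of the members is much the same in all types, while cluster 0 (grey) lies above the named types for mt-Atp6 and below them for mt-Nd3 and mt-Cytb.

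The OLE library was compared with the vehicle library as the log2 ratio of UMIs per 1000000, and ratios past 0.322 or -0.322 were counted. Over all retained nuclei the 10-gene sum was higher in OLE by 0.03 (0.02 to 0.04). The size of this difference depended on depth, as it was 0.27 with depth bins weighted equally and 0.01 without nuclei under 1000 UMIs outside chromosome M. Within groups, the sum was lower in OLE in glutamatergic-like (-0.10), GABAergic-like (-0.06), oligodendrocyte-like (-0.05), OPC-like (-0.20) and leptomeningeal-like nuclei (-0.07) and in clusters 0 (-0.09) and 4 (-0.23). It was higher in microglia-like (0.23), endothelial-like (0.23) and mural-like nuclei (0.69), and differed by 0.02 in astrocyte-like ones. The makeup of the libraries also differed, with 6692732 of 66390633 UMIs from cluster 0 in vehicle and 9951876 of 64455786 in OLE. By complex and over all retained nuclei, the 5 complex I members summed differed by 0.02 (0.0027 to 0.03) and mt-Cytb by 0.02 (0.00092 to 0.04). The 3 complex IV members differed by 0.02 (0.01 to 0.03) and mt-Atp6 by 0.07 (0.06 to 0.08). The member with the lowest ratio was mt-Nd3, at -0.13 (-0.17 to -0.09). None of the 10 was past this limit in either direction. Of 14402 genes that had 200 or more UMIs in both libraries together, 15.6% were past it on the higher side in OLE and 0.868% on the lower side, and their median log2 ratio was 0.08.

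In neuron-like nuclei the members were slightly lower in OLE. Among glutamatergic-like nuclei the sum differed by -0.10 (-0.11 to -0.09), with all 10 members below 0 and the intervals of 8 excluding it. Genes with many UMIs have narrow intervals that exclude 0 at small ratios. The share of all genes with such intervals is not given, here or for the other groups, so these counts have no background. None of the 10 members was past the limit, while 12.4% of 12452 genes were higher and 0.988% lower, with a median of 0.06. Among GABAergic-like nuclei the sum differed by -0.06 (-0.09 to -0.04), and the intervals of 5 members lay below 0 and of none above. None of these members was past the limit, beside 13.4% of 7486 genes higher and 1.88% lower. The sign of both sums was the same under every alternative, but the size was not, from -0.02 to -0.19 and from -0.05 to -0.31.

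Glia-like nuclei gave ratios of either sign. Oligodendrocyte-like nuclei had a sum that differed by -0.05 (-0.07 to -0.02), by 0.06 with likely doublets kept and by -0.21 with depth bins weighted equally, and only the interval of mt-Nd1, at -0.19 (-0.31 to -0.08), excluded 0. None of the 10 was past the limit, beside 7.41% of 3602 genes higher and 5.22% lower. In OPC-like nuclei the sum differed by -0.20 (-0.25 to -0.15), or 0.04 with depth bins weighted equally. Of the 9 members with at least 200 UMIs, mt-Co2 was lower just past the limit, at -0.324 (-0.46 to -0.19) with 1098 and 728 UMIs, and none was higher. In this type 6.75% of 1229 genes were higher and 6.75% lower.

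Microglia-like nuclei had the largest ratio of the 6 types, 0.23 (0.20 to 0.27), and the intervals of 8 members lay above 0. The share of all genes with such intervals is not given. mt-Atp6, at 0.35 (0.27 to 0.44), and mt-Nd2, just past the limit at 0.323 (0.17 to 0.47), were higher, 2 of the 9 members with at least 200 UMIs, and none was lower. The background was 5.53% of 1898 genes higher and 8.06% lower. A single OLE nucleus held 1536 of the 11141 member UMIs, or 13.8%. Without the nucleus with the most member UMIs in each library the ratio was 0.08, without nuclei past the 5% mark -0.04, and with the chromosome M genes kept in the clustering -0.03. The median microglia-like nucleus had a lower share in OLE, at 0.733% against 0.781%.

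Astrocyte-like nuclei had a ratio of 0.02 (-0.03 to 0.07). A single OLE nucleus held 1642 member UMIs, 22.2% of those of its type, and without the richest nucleus in each library the ratio was -0.24, and it was below 0 under 3 other alternatives as well. None of the 9 members with at least 200 UMIs was past the limit, beside 6.44% of 1491 genes higher and 9.19% lower.

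In cluster 0 all 10 members were lower in OLE with intervals below 0, but this direction rested on how its nuclei were weighed. The share of all genes with such intervals is not given. The sum differed by -0.09 (-0.10 to -0.08). mt-Nd3, at -0.36 (-0.47 to -0.25), was lower past the limit, 1 of the 10, and none was higher, beside 6.79% of 9619 genes higher and 2.14% lower. The median nucleus of cluster 0, by contrast, had the higher share in OLE, at 1.02% against 0.985%. In 4 of its 7 lowest deciles the share was higher in OLE, at 3.33% against 2.56% in the lowest, 1.05% against 1.03% in the third, 1.05% against 1.00% in the fourth and 1.05% against 0.931% in the seventh. The counting intervals overlapped in the third decile and in the second, the fifth and the sixth, where the share was lower in OLE. In alternatives added after these values had been seen, the ratio of the sum was 0.01 without nuclei past the 5% mark and 0.14 with depth bins weighted equally.

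**Figure D4:**
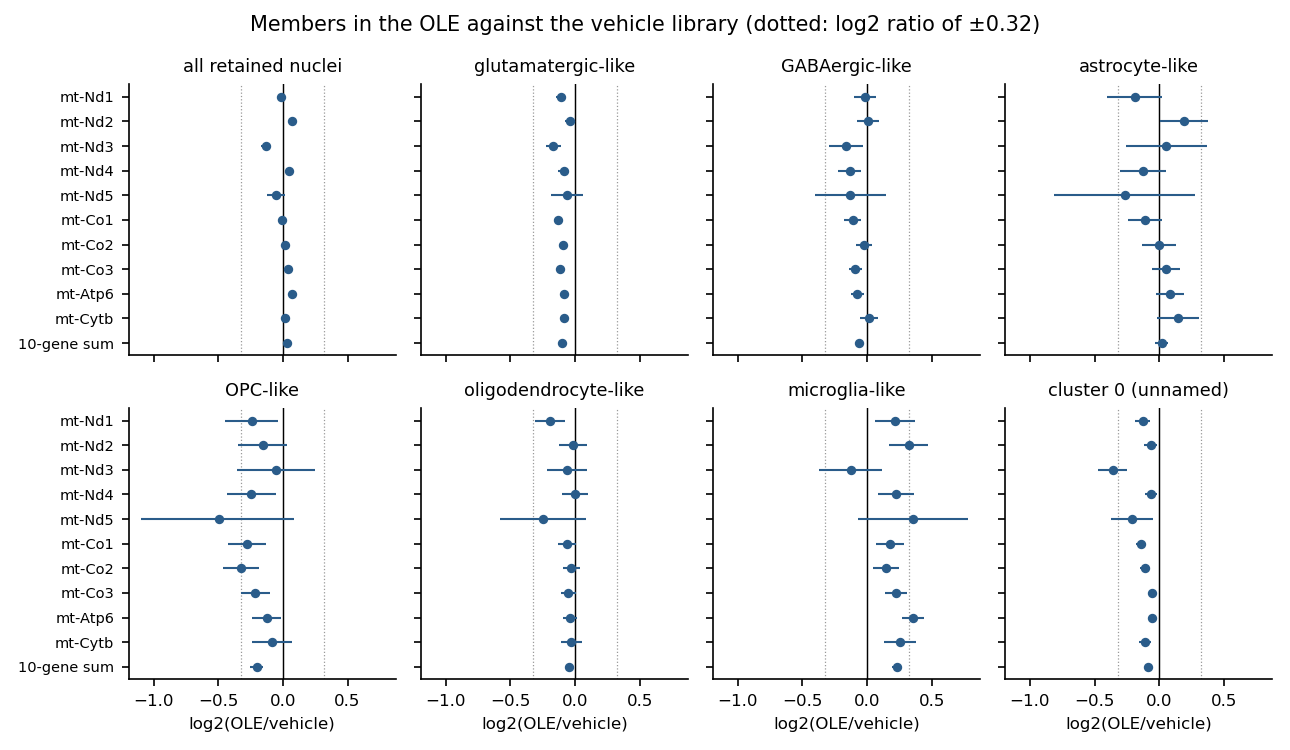
Log2 ratio of OLE to vehicle for each member and the 10-gene sum (points) with 95% counting intervals (lines), in all retained nuclei, 6 cell types and cluster 0. Dotted lines mark 0.322 and -0.322. Most points lie between them, microglia-like nuclei have points right of 0 and OPC-like nuclei left of it, and mt-Nd3 is the leftmost member in cluster 0.

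Over all nuclei mt-Nd3 was the member that differed most within the sum as a log2 ratio. Scaled by the 10-gene sum instead of all UMIs, its log2 ratio was -0.16 (-0.20 to -0.12) over all nuclei, -0.27 (-0.38 to -0.16) in cluster 0, -0.36 (-0.60 to -0.12) in microglia-like nuclei and -0.07 (-0.13 to -0.01) in glutamatergic-like nuclei. It was -0.01 (-0.16 to 0.14) in oligodendrocyte-like, 0.04 (-0.27 to 0.35) in astrocyte-like and 0.15 (-0.16 to 0.45) in OPC-like nuclei. In these 3 types mt-Nd5 differed more, at -0.20 (-0.53 to 0.13), -0.28 (-0.83 to 0.26) and -0.29 (-0.90 to 0.29), all with intervals that hold 0. The other 9 members lay between -0.08 and 0.04 over all nuclei on this scale. In cluster 0 mt-Nd3 made up less of the sum than in the cell types named here. That cluster held 17.9% of all member UMIs in vehicle and 25.3% in OLE. Its part in the mt-Nd3 value over all nuclei was not tested.

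The nuclear-encoded subunits of the same machinery did not follow the members. The 5 lists hold 75 genes, all in the files. Summed over all retained nuclei they gave 122665 UMIs in vehicle and 147593 in OLE, which is 1848 and 2290 UMIs per 1000000, a log2 ratio of 0.31 (0.30 to 0.32). Of the 73 with at least 200 UMIs, 46 were higher in OLE past the limit and none lower, against the 15.6% and 0.868% of all genes given above, and their median log2 ratio was 0.37 beside 0.08. Within groups fewer were higher, and none was lower past the limit. In glutamatergic-like nuclei 26 of 73 were higher (median 0.22), in GABAergic-like nuclei 19 of 49 (0.28), and 21 of 71 in cluster 0 (0.26). The backgrounds there were 12.4%, 13.4% and 6.79% of all genes. In oligodendrocyte-like nuclei 0 of 9 were higher, and in OPC-like, microglia-like and astrocyte-like nuclei at most 1 gene had 200 UMIs. For each UMI of a nuclear-encoded subunit there were 3.54 member UMIs in vehicle and 2.91 in OLE over all retained nuclei.

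Over all retained nuclei, genes past the limit were found in each list. Of the complex I list 21 of 35 were higher, led by Ndufb11 at 0.76 and Ndufb9 at 0.70, with Ndufb4 at -0.07 and Ndufs5 at -0.05 at the other end. Of complex III 6 of 9 were higher, with Uqcrb at 0.84 and Uqcrfs1, the Rieske iron-sulfur subunit, at 0.70, and Uqcrc2 at 0.09 and Uqcrc1 at 0.23 as the lowest. Complex IV had 7 of 10, with Ndufa4 at 0.89 and Cox6c at 0.49, and Cox7b at 0.29 and Cox7c at 0.30. ATP synthase had 11 of 15, with Atp5j at 0.79 and Atp5g3, which encodes the ring subunit c, at 0.67, and Atp5c1 at 0.07 and Atp5l at 0.21. Of complex II, which has no mitochondrially encoded subunit, 1 of 4 was higher, Sdhd at 0.43, with Sdha at 0.15, Sdhb at 0.05 and Sdhc at 0.0012.

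The members' ratio lay below that of the nuclear-encoded subunits in 5 of the 6 types, all but microglia-like nuclei, with overlapping intervals in astrocyte-like nuclei. In microglia-like nuclei the intervals overlapped as well, at 0.23 (0.20 to 0.27) for the members and 0.19 (0.11 to 0.28) for the nuclear-encoded subunits. The summed nuclear-encoded subunits were higher in OLE with intervals above 0 in each of the 6 types, from 0.13 (0.05 to 0.22) in astrocyte-like to 0.30 (0.24 to 0.36) in oligodendrocyte-like nuclei, and by 0.18 (0.17 to 0.20) in glutamatergic-like nuclei. Each of these 6 values lay below the 0.31 over all nuclei, in some types within counting error. The members' sum had an interval above 0 in 1 type, microglia-like, and below 0 in 4. In cluster 0 the nuclear-encoded sum differed by 0.28 (0.25 to 0.30). Depth differs between the libraries, so the ratio was also taken within each depth decile. The nuclear-encoded sum was higher in OLE in all 10 deciles, by 0.14 to 0.59, while the members ranged from -0.49 in the fourth to 0.73 in the second, above 0 in 5 deciles and below it in 3 with intervals that exclude 0. In the second decile and the third, the members' ratio, 0.73 and 0.55, was above that of the nuclear-encoded subunits, 0.45 and 0.19. Of 14 genes for the expression of mitochondrial DNA, such as Tfam, Polrmt and Lrpprc, 1 was higher past the limit and none lower over all nuclei, with a median of 0.07, and of 7 nuclear-retained RNAs such as Malat1 and Meg3 none was past it, with a median of 0.0016. The part of library preparation, depth or carried-over RNA in this gap was not tested.

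**Figure D5:**
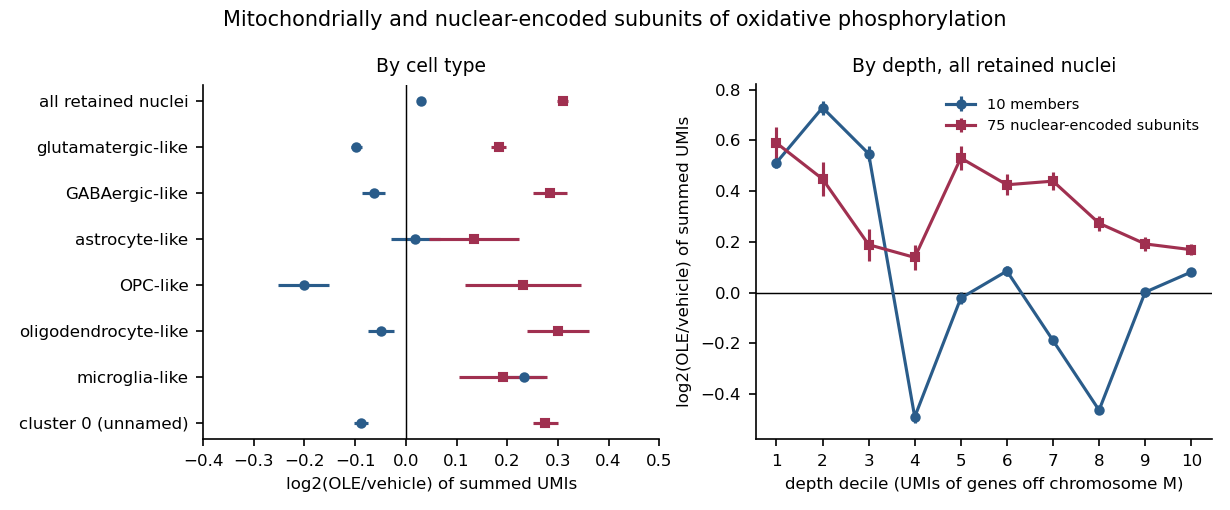
Log2 ratio of OLE to vehicle of the summed UMIs of the 10 members (blue circles) and of 75 nuclear-encoded subunits (red squares), with 95% counting intervals, by cell type (left) and by decile of UMIs from genes outside chromosome M (right). The nuclear-encoded sum lies above 0 in every type and decile shown, and the members' sum lies on either side of it.

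Levels of the nuclear-encoded lists followed those of the members more closely over depth than over types. Over the 20 combinations of decile and library, the log2 level of the summed complex IV list had a Pearson r of 0.948 with that of the members, complex I 0.930 and ATP synthase 0.922, while the nuclear-retained RNAs had -0.843. Complex IV gave 0.111% of UMIs in the lowest decile of vehicle and 0.0216% in the highest, and nuclear-retained RNAs 2.75% and 4.10%. Over the 14 combinations of type and library the r of these 3 subunit lists was 0.831, 0.792 and 0.773, and that of the nuclear-retained RNAs 0.0085. Points share libraries, and their depth moves with the members' share.

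Among 12084 genes outside chromosome M with at least 500 UMIs, those most like the members over types were Vim (r = 0.988), an intermediate filament, Rbms2 (0.983), Anxa2 (0.982), Eif4g2 (0.979) and Ifitm3 (0.978), each over 14 points of which the leptomeningeal-like ones were the highest for the members. Over the 20 points of depth they were Cmss1 (0.979), Gm42418 (0.975), Cox8a (0.975), a subunit of complex IV, AY036118 (0.973) and Rpl37 (0.972), a ribosomal protein gene.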

How the data were processed

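The authors aligned the reads with Cell Ranger to a pre-mRNA reference of mm10 and deposited, for each library, whole-number UMI counts per gene and barcode without normalization. The submitters' processing notes name Cell Ranger 3.0.1 and Seurat 4.0.4, while the matrix headers name 3.0.2. Whether strand was used in counting is not given in the sources used here. Doublets were removed by the authors in Seurat according to the methods, by a caller not given in the sources used here, and it is not known whether the deposited counts precede that step.

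The members, gene lists and markers were chosen with earlier results of these data known. Doublets were scored with Scrublet (scanpy 1.11.5). Its automatic threshold marked 0.104% of vehicle and 0.130% of OLE nuclei, under a minimum of 0.5%, so the top 5% of scores were left out instead. Counts without the 13 chromosome M genes were normalized with SCTransform (3000 genes; Seurat 5.3.0, sctransform 0.4.2, R 4.3.3) and clustered by the Louvain method on 30 components and 20 neighbours at resolution 0.4. A cluster was named from at least 3 markers raised at least 4-fold over the 25th percentile of clusters and found in 10% of its nuclei. No name was given if another type had more markers among the leading 10 genes of the cluster, or if the best type had none there and 50% or more of the markers of a different type were raised, or the depth was low. This scoring was taken from an earlier analysis of these data.

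UMIs were summed per library and type, scaled per 1000000 UMIs, and set against each other as the log2 ratio of OLE to vehicle, with no pseudocount. Ratios past 0.322 or -0.322 were counted. Shares have Clopper-Pearson intervals, sums Poisson intervals, and ratios the binomial interval of one library's counts among both, all for counting error only. Thinning drew 1000 UMIs per nucleus. The text names the 10 members, the other 3 protein genes of chromosome M, the 2 highest and 2 lowest ratios over all nuclei in each nuclear-encoded list, and the 5 genes most like the members by Pearson r of log2(UMIs per 1000000 + 1). Lists were set against genes with at least 200 UMIs. Single nuclei with many member UMIs, alternatives for cluster 0 and the split of cluster 16 were examined after the values had been seen. Gene positions and ends are from GENCODE vM21 (GRCm38), and copies were sought by blastn among its transcripts. Ratios and intervals were tested on simulated data. Other tools were Python 3.11.15, numpy 2.4.6, scipy 1.17.1, pandas 2.3.3 and matplotlib 3.10.9. The barcode and gene lists deposited beside the counts hold names only.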

Additional observations from a re-analysis of the deposited data

Results flagged for a closer look

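The log2 ratio of the 10-gene sum was above 0 in microglia-like nuclei (0.23) and below 0 in glutamatergic-like (-0.10), GABAergic-like (-0.063), oligodendrocyte-like (-0.048) and OPC-like nuclei (-0.20), beyond counting error in each. These are opposite directions under the same contrast, but each value rests on 1 library per group, and the difference between the types was not tested. The microglia-like value was above 0 with likely doublets kept (0.13) and below 0 without nuclei past the 5% mark (-0.04) or with the chromosome M genes kept in the clustering (-0.03). The oligodendrocyte-like value turned to 0.061 with likely doublets kept, and the OPC-like value to 0.042 with depth bins weighted equally.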

How the results depend on the processing

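Each log2 ratio of the 10-gene sum is given here under its alternatives, in the order all retained, glutamatergic-like, GABAergic-like, oligodendrocyte-like, OPC-like, microglia-like and astrocyte-like nuclei, whose main values were 0.03, -0.10, -0.06, -0.05, -0.20, 0.23 and 0.02. With likely doublets kept they were 0.041, -0.016, -0.046, 0.061, -0.299, 0.131 and -0.319. Without nuclei past the 5% mark they were 0.034, -0.087, -0.244, -0.030, -0.146, -0.044 and -0.268. Without nuclei under 1000 UMIs outside chromosome M they were 0.010, -0.098, -0.063, -0.048, -0.202, 0.200 and 0.019. With depth bins weighted equally they were 0.274, -0.191, -0.308, -0.214, 0.042, 0.287 and -0.298. With the chromosome M genes kept in the clustering, the 6 types had -0.057, -0.062, -0.051, -0.202, -0.027 and 0.019. Without the nucleus with the most member UMIs in each library, an alternative added after the values had been seen, the 7 were 0.039, -0.111, -0.085, -0.053, -0.207, 0.077 and -0.239. The sign turned in oligodendrocyte-like nuclei under 1 alternative, in OPC-like nuclei under 1, in microglia-like nuclei under 2 and in astrocyte-like nuclei, where the interval of the main value held 0, under 4, and the cause was not tested. In cluster 0, under alternatives that were likewise added later, the value of -0.089 became 0.012 without nuclei past the 5% mark, 0.138 with depth bins weighted equally, -0.050 without nuclei under 1000 UMIs outside chromosome M and -0.083 without the richest nucleus of each library. Its other alternatives were not run, since they rebuild the clusters. The share of the lowest over that of the highest depth decile was 14.0 in vehicle and 18.9 in OLE, 4.25 and 4.95 without nuclei past the 5% mark, and 13.5 and 17.3 with likely doublets kept. No paired analysis was possible because each group was 1 library. With 1 library per group, differences of this size between pools of mice cannot be told apart from an effect of OLE. Leaving out the nucleus with the most member UMIs in each library moved the value most in microglia-like (0.234 to 0.077) and astrocyte-like nuclei (0.019 to -0.239).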
